A study of Mus musculus with 13 samples.

Results

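The 7 genes described here, Dusp1, Dusp2, Dusp4, Dusp5, Dusp6, Dusp10 and Dusp16, encode dual specificity MAP kinase phosphatases. ATAC-seq, which tags accessible DNA with a transposase, was run on microglia sorted from mouse brain. All peaks of the deposited count table whose nearest annotated start site belongs to 1 of these genes and lies within 50 kb were taken, which gave 32 of 38620 peaks. Dusp1 had 8 of them, Dusp2 had 3, Dusp4 had 4, Dusp5 had 3, Dusp6 had 6, Dusp10 had 3 and Dusp16 had 5. All 32 passed the filter on low counts. A further 13 peaks of Dusp6 and Dusp10 lay beyond the limit and were left out. The last peak inside it lay 36296 bp and the first outside 63033 bp from a start site, both at Dusp6.

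MAP kinase phosphatases switch off the MAP kinases ERK, JNK and p38 by removing phosphate from the threonine and the tyrosine of the activation loop. Many are themselves induced by the pathway they terminate, which makes them feedback inhibitors. In macrophages, LPS activates all of these kinases through Toll-like receptor 4, and Dusp1 is best known there for ending p38 and JNK signalling and so limiting cytokine output. Accessibility of DNA near a gene is not its expression, and no RNA was measured in these libraries.

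The animals were male C57BL/6J mice, and the letters of a group's name give its treatments in order (PBS as P, LPS as L, the CSF1R inhibitor BLZ945 as B). The first injection came at 10 weeks of age and the next 5 weeks later. Cells were collected 3 hours after the later injection, at 15 weeks of age. LPS (Escherichia coli O111:B4) was given intraperitoneally at 1 mg/kg. BLZ945, given by mouth at 169 mg/kg per day for 5 days starting 1 week after the first injection, depletes microglia, which then repopulate the brain. LBL mice received LPS, BLZ945 and LPS (2 libraries), PBL mice PBS, BLZ945 and LPS (3 libraries), and PBP mice PBS, BLZ945 and PBS (2 libraries). LL mice received LPS both times, PL mice PBS and then LPS, and PP mice PBS both times (2 libraries each). These last 3 groups received vehicle in place of BLZ945 and kept their original microglia. Each library was a pool of 40000 CD11b-high, CD45-intermediate, Ly6c-negative cells from each of 2 animals, so a replicate is a pool. Animal number 4 stands in the names of both PBL 3_4 and PBL 4_5, and nothing used here says whether that is 1 mouse in both pools.

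Libraries held 927840 to 2772688 rounded counts in peaks, of which 0.107% to 0.121% fell in the 32 peaks. All 7 microglia markers listed had a peak within 1 kb of their start site, and their summed level was 341 to 394 CPM in LBL, 279 to 300 CPM in PBL and 423 to 475 CPM in PBP, and 345 to 356 CPM in LL, 277 to 298 CPM in PL and 360 to 402 CPM in PP. The sum was thus lower in PBL than in PBP and in PL than in PP, with no overlap. It was also higher in LBL than in PBL, in LL than in PL and in PBP than in PP. It was lower in LBL than in PBP and in LL than in PP, again with no overlap. Its part in the results below was not tested. None of the listed monocyte, neutrophil, neuron or endothelial markers had a peak there. Peaks were found for 2 of 5 astrocyte markers (56.9 to 79.9 CPM summed), 2 of 5 border macrophage markers (13.9 to 30.2 CPM, with Cd163, Pf4 and Lyve1 lacking one), 1 of 5 lymphocyte markers and 1 of 5 oligodendrocyte markers. The lymphocyte marker peak had 19.0 to 19.2 CPM in PL and 10.5 to 14.3 CPM in all other groups, and the oligodendrocyte marker peak 6.31 to 7.98 CPM in PP and 7.33 to 16.6 CPM in the others, and their part in the results was not tested either. The library PL 3_4 stood apart, with 53.2% of its counts in promoter peaks against 55.5% to 60.1% in the other 12. The PL pair also differed most from each other, at a chi-square of 1.84 per degree of freedom, against 0.978 to 1.15 for other replicate pairs. A chi-square test found no difference beyond counting noise within the LBL pair (0.978, p = 0.999) or the PP pair (1.01, p = 0.0716). With no other pair in those groups to compare, each was kept as 2 libraries. PP, PL and PBP cells were sorted on one instrument and PBL, LL and LBL cells on another. PBL, LL and LBL were each isolated on a day of their own, so for them day and treatment cannot be told apart. PL 3_4 shared the day of PP, and PL 1_2 that of PBP. In a bulk library, a peak that is open in fewer cells and one that is less open in each cell cannot be told apart.

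Promoter sequences are shown for 3 genes: Dusp1, whose start-site peak fell, Dusp2, whose peaks upstream of this window were called in both repopulated comparisons, and Dusp5, whose start-site peak was not called and whose promoter holds the most motif matches. Each runs 5′ to 3′ on the gene's strand, from 250 bases before to 50 bases after the start site (RefSeq, build GRCm38.p6), and matches to any of 5 motifs are in capitals.
Dusp1 promoter, chr17:26508423-26508722 (minus strand): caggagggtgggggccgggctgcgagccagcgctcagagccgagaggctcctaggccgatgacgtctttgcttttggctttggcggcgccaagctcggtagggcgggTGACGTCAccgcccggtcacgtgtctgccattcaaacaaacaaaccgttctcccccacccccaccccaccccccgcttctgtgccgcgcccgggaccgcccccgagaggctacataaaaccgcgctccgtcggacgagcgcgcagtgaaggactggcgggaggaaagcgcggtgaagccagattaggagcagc
Dusp2 promoter, chr2:127335909-127336208 (plus strand): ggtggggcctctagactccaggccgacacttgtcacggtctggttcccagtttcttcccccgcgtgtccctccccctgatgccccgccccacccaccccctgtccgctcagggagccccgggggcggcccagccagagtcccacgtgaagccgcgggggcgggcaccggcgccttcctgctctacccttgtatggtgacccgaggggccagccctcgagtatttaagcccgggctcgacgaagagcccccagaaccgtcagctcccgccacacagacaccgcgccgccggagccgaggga
Dusp5 promoter, chr19:53528895-53529194 (plus strand): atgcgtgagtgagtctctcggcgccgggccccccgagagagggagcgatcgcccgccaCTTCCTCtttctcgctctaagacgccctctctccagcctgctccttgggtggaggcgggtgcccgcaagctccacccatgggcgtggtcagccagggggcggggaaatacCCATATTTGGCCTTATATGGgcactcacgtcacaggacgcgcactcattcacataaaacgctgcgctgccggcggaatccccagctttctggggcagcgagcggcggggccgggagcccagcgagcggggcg
The start-site peak covered all 300 bases of each of these windows. RefSeq's table held windows for 6 of the 7 genes, and Dusp4 had no entry. Both strands were searched for AP-1 (TGANTCA), the cyclic AMP response element (TGACGTCA), ETS (GAGGAAG), kappa B and the CArG box of serum response elements. The capitals in Dusp1 mark a cyclic AMP response element that begins at base -143 from the start site, and 1.79% of 32851 promoter windows of that length held one. In Dusp5 the capitals mark an ETS match on the opposite strand at base -192 and a pair of adjoining CArG boxes at bases -82 and -72. CArG boxes occurred in 1.63% and ETS matches in 13.6% of all windows. Dusp6 also held an ETS match. None of the 6 windows held an AP-1 match (7.81% of all windows) or a kappa B match (4.51%), the Dusp2, Dusp10 and Dusp16 windows held no match to any of the 5, and no match overlapped another. A match is only a string of letters, and no binding was measured.

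Across the 9 comparisons, 11 of the 32 peaks changed in at least 1 comparison, at 6 of the 7 genes, and Dusp4 was the exception. Over all tested peaks, 18.2% changed in at least 1 comparison. A peak is said to have changed, risen or fallen where its adjusted p was under 0.05 in edgeR's quasi-likelihood test, adjusted by the Benjamini-Hochberg method over all 37516 peaks tested. Of the 11, 9 were among the 21 distal peaks and 2 among the 11 promoter peaks (those within 1 kb of a start site), where 21.3% of all distal and 12.7% of all promoter peaks changed. Only 1 of the 8 start-site peaks changed, that of Dusp1, and 12.3% of all start-site peaks did. Peaks are named below by their gene and their distance in bp to the nearest annotated start site, negative upstream. Levels are in CPM, which are counts divided by library size after TMM scaling.

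**Figure D1:**
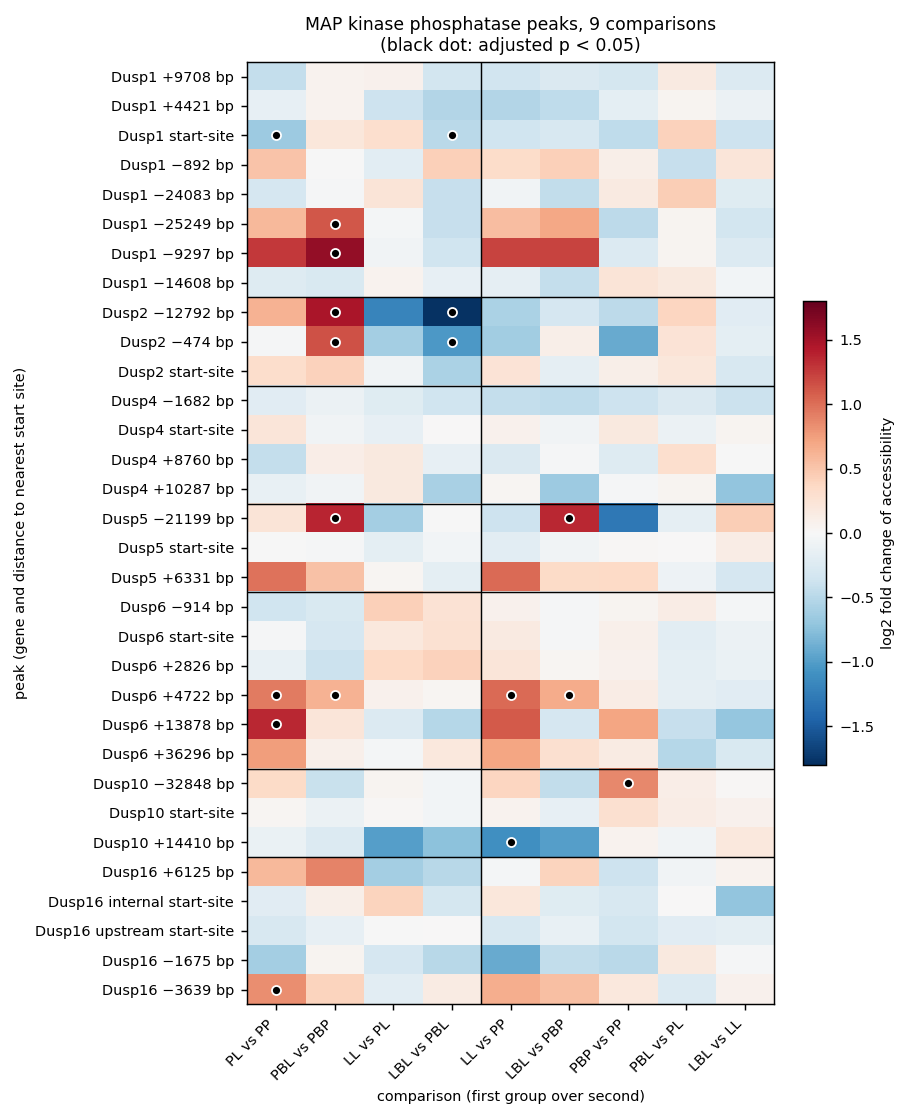
Log2 fold changes of the 32 peaks (rows, grouped by gene) in the 9 comparisons (columns), first group over second, with a black dot where edgeR's adjusted p was under 0.05. The 18 dots fall on 11 peaks, and the Dusp6 +4722 row holds 4 of them.

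After a first LPS injection, 6 of 32 peaks rose and none fell in repopulated microglia (PBL against PBP), at Dusp1, Dusp2, Dusp5 and Dusp6. Over all tested peaks, 6.74% rose and 3.23% fell in that comparison. In microglia never depleted (PL against PP), 3 of 32 peaks rose, at Dusp6 and Dusp16, and 1 fell, at the Dusp1 start site. The background there was 4.77% higher and 2.69% lower, and among all promoter peaks 4.64% fell. The members' median log2 fold change was 0.06 for PBL against PBP, where the median of all peaks was -0.00297, and it was -0.01 for PL against PP, where that of all peaks was 0.00834. Most of the 32 peaks thus had no call in either. Distal peaks made up 5 of the 6 that rose in PBL, or 5 of 21 distal peaks, against 8.91% of all distal peaks, and all 3 that rose in PL, against 6.24% of all distal peaks. PBL and PBP also differed in sorting instrument and day, which cannot be told apart from LPS. Without PL 3_4 no PL peak was called, and without PBP 1_2 the 6 calls of PBL against PBP became 3.

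In LBL mice the first LPS injection came before depletion, while LL mice kept their microglia through both injections. Where mice received LPS for the second time after repopulation (LBL against PBL), 3 of 32 peaks fell, at Dusp1 and Dusp2, and none rose. Over all peaks 0.928% fell and 0.973% rose in that comparison. The members' median log2 fold change was -0.25, with 23 of the 32 below 0, while the median of all peaks was -0.00654. That lean was not particular to this comparison. LBL against LL also had 23 of the 32 below 0 (median -0.14), and LBL against PBP had 21 (median -0.10). The share of all peaks below 0 was not counted. In microglia never depleted (LL against PL) edgeR called none of the 32, with 7 at an unadjusted p under 0.05, and neither DESeq2 nor limma-trend called any (4 and 5 at an unadjusted p under 0.05). Only 0.064% of all peaks were called in LL against PL. LBL and PBL came from the same sorting instrument but from different days. Without LBL 1_2 none of the 3 calls was left, and without LBL 3_4 there was 1.

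Against PBS-only mice, a second LPS injection left 2 peaks higher in repopulated microglia (LBL against PBP; 3.94% of all peaks rose and 0.88% fell), 1 each at Dusp5 and Dusp6. Without depletion (LL against PP), 1 peak rose at Dusp6 and 1 fell at Dusp10, with 4.13% of all peaks higher and 2% lower. Repopulation alone (PBP against PP) was accompanied by 1 higher peak, at Dusp10, where 0.064% of all peaks rose and 0.096% fell. Repopulated and original microglia after LPS gave no call by edgeR, DESeq2 or limma-trend. For PBL against PL, 4 of the 32 peaks had an unadjusted p under 0.05 by edgeR, 1 by DESeq2 and 1 by limma-trend, and 0.0826% of all peaks were called. For LBL against LL the numbers were 4, 1 and 3, and 0.0506% of all peaks were called. LBL against PBP shares its PBP libraries with PBL against PBP, and LL against PP shares its PP libraries with PL against PP. The same peak called in both therefore rests in part on the same libraries.

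**Figure D2:**
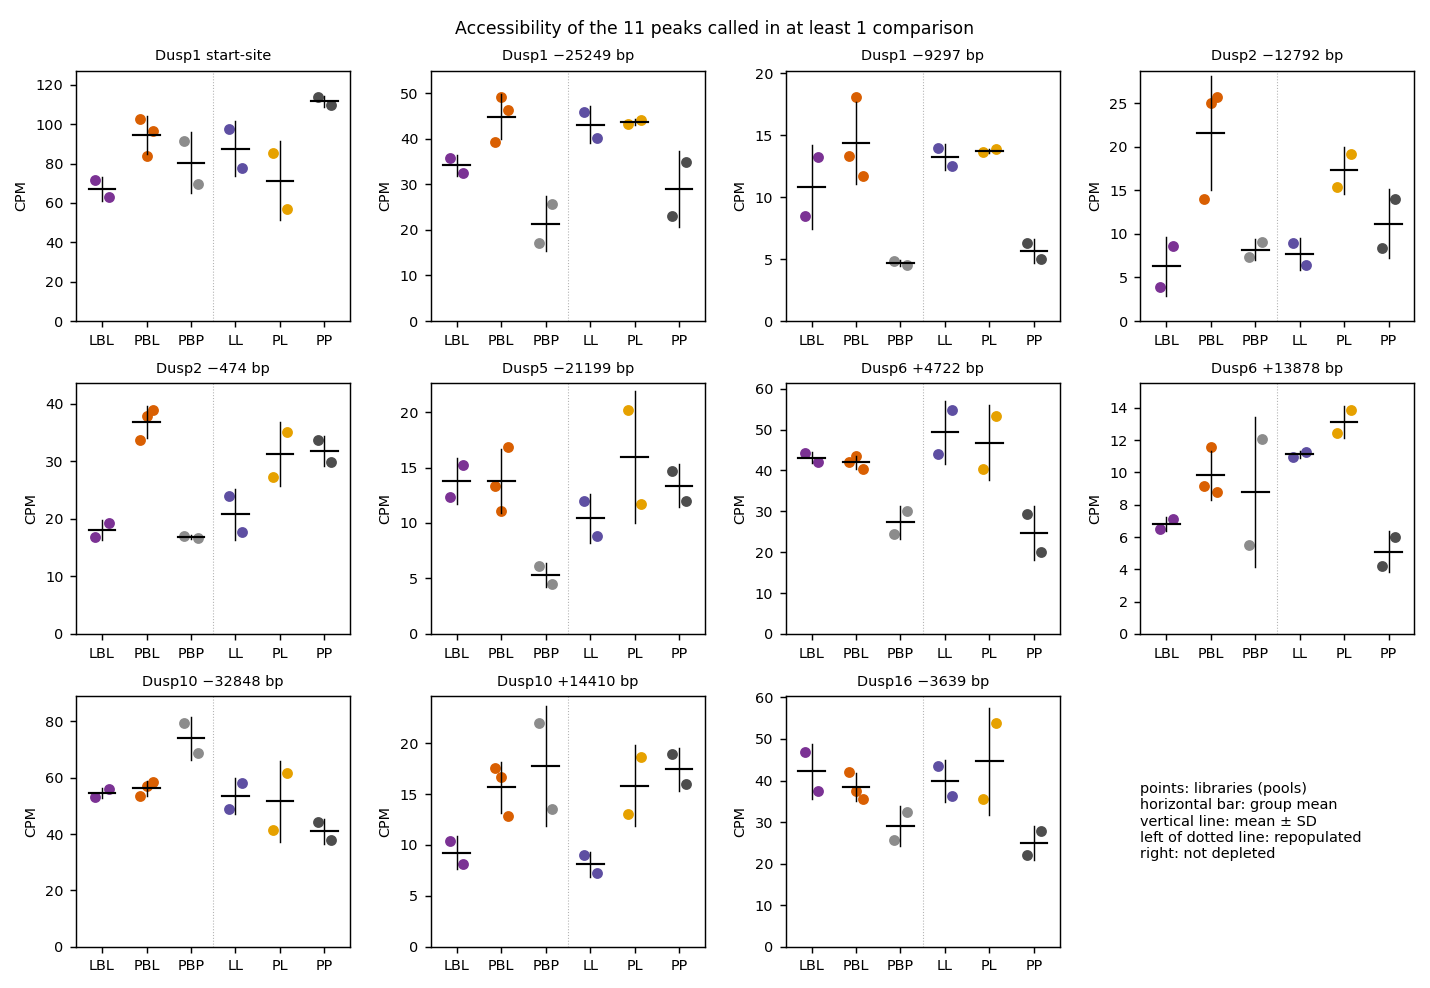
CPM of the 11 peaks called in at least 1 comparison (y axes, each from 0), with a point per library, a bar at the group mean and a line of ± 1 SD, repopulated groups left of the dotted line. At Dusp2 -12792 the PBL libraries lie at 14.0 to 25.7 CPM, above both LBL libraries and both PBP libraries.

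Dusp1 (MKP-1) encodes a nuclear phosphatase with a preference for p38 and JNK. Its start-site peak (chr17:26507982-26509028) was lower after LPS in original microglia, while 2 upstream peaks were higher after LPS in repopulated microglia. The start-site peak had 71.5 and 63.0 CPM in LBL, 103, 83.7 and 96.8 CPM in PBL, and 91.5 and 69.4 CPM in PBP. It had 97.3 and 77.7 CPM in LL, 85.4 and 57.0 CPM in PL, and 114 and 109.8 CPM in PP. Both PL libraries lay below both PP libraries, and PL 3_4, at 57.0 CPM, was the lowest library of all. The peak fell in PL against PP (log2 fold change -0.66 ± 0.16 SE, edgeR adjusted p = 0.00253) and in LBL against PBL (log2 fold change -0.49 ± 0.13 SE, edgeR adjusted p = 0.027). Against PP alone, the PL 3_4 library isolated on the same day gave -0.97 (adjusted p = 8.36e-06 by edgeR with isolation day as a term). Without PL 3_4 the value was -0.40 (edgeR adjusted p = 0.253), and without PP 1_2 the adjusted p was 0.0606. The LBL call was lost in 9 of 16 alternatives, among them leaving out either LBL library and DESeq2, with adjusted p-values of up to 0.651, and was 0.0653 in a fit with the pool number as a block. LL lay at -0.36 relative to PP, with an adjusted p of 0.129 by edgeR.

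The first LPS response of this start-site peak was -0.66 in original and 0.21 in repopulated microglia. The difference between those responses, repopulated minus original, was 0.87 ± 0.21 SE on the log2 scale (95% interval 0.46 to 1.27), with an adjusted p of 0.0524 by edgeR, so it missed the threshold. It was past the threshold in 9 of 20 alternatives, among them a fit with the pool number as a block (edgeR adjusted p = 0.0195). In the other 11, DESeq2 and limma-trend included, it was not. With 1 library left out, the difference ran from 0.59 to 1.16. The PL against PP response, which is part of it, was -0.40 without PL 3_4, so its size depends on that library. None of the 32 peaks passed this test of a difference in the first response, by edgeR (5 with an unadjusted p under 0.05), DESeq2 (3) or limma-trend (6), and 0.0746% of all peaks did. For the difference between second LPS effects none passed either (edgeR 6, DESeq2 1 and limma-trend 3 at an unadjusted p under 0.05), and the share of all peaks was 0%.

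The Dusp1 -25249 peak (chr17:26533768-26534212, in an intron of a longer annotated transcript of Dusp1) had 35.7 and 32.5 CPM in LBL, 39.3, 49.0 and 46.2 CPM in PBL, and 17.1 and 25.6 CPM in PBP. It had 45.9 and 40.2 CPM in LL, 43.3 and 44.2 CPM in PL, and 23.1 and 34.9 CPM in PP. The PBP libraries were the lowest of the repopulated groups, and no PBL library came below 39.3 CPM. The peak rose in PBL against PBP (log2 fold change 1.11 ± 0.21 SE, edgeR adjusted p = 2.22e-05), and the call was lost without PBP 1_2, at 0.81 and an adjusted p of 0.0617. PL against PP gave 0.58 with an edgeR adjusted p of 0.117. Relative to the start-site peak, its mean ratio was 0.481 in PBL and 0.273 in PBP, and 0.642 in PL and 0.263 in PP. The start-site peak itself fell in PL against PP, which by itself raises the ratio in PL.

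A weaker peak, Dusp1 -9297 (chr17:26571425-26571794), lies in the first intron of Ergic1, a gene of vesicle traffic between endoplasmic reticulum and Golgi. The deposited distance is to the start of a longer Dusp1 transcript, while the RefSeq start site lies at -62953 bp, so its tie to Dusp1 is by position only. It had 8.45 and 13.2 CPM in LBL, 13.3, 18.0 and 11.7 CPM in PBL, and 4.88 and 4.53 CPM in PBP. It had 14.0 and 12.5 CPM in LL, 13.6 and 13.8 CPM in PL, and 6.31 and 4.99 CPM in PP. All 3 PBL libraries exceeded both PBP libraries, and both PL libraries exceeded both PP libraries. The rise passed the test in PBL against PBP (log2 fold change 1.58 ± 0.37 SE, edgeR adjusted p = 0.000946; 0.052 by DESeq2), and PL against PP gave log2 fold change 1.28 ± 0.44 SE, edgeR adjusted p = 0.0551. The other 5 Dusp1 peaks never changed. Among them the Dusp1 +9708 peak ranged over 50.1 to 83.8 CPM, and the Dusp1 -892 promoter peak over 14.7 to 29.6 CPM.

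Dusp2 (PAC-1), a nuclear phosphatase first described in activated immune cells, had 2 upstream peaks that each changed in 2 comparisons, among them the largest called change of the 32 peaks, -1.78 at Dusp2 -12792. In repopulated microglia its upstream peaks were more accessible after a first LPS injection than after PBS, and less accessible after a second injection than after a first. The Dusp2 -12792 peak (chr2:127322612-127323367) is intergenic in the deposited annotation but lies within the RefSeq span of Gm46762. It had 3.90 and 8.63 CPM in LBL, 14.0, 25.0 and 25.7 CPM in PBL, and 7.32 and 9.05 CPM in PBP. It had 8.98 and 6.44 CPM in LL, 15.4 and 19.2 CPM in PL, and 8.41 and 14.0 CPM in PP. No PBL library overlapped an LBL or PBP library, and LBL and PBP overlapped each other. It rose in PBL against PBP (log2 fold change 1.48 ± 0.30 SE, edgeR adjusted p = 0.000118) and fell in LBL against PBL (log2 fold change -1.78 ± 0.30 SE, edgeR adjusted p = 3.81e-05). LBL against PBP gave log2 fold change -0.30 ± 0.43 SE, edgeR adjusted p = 0.794. In original microglia the directions were the same, without a call: 0.62 for PL against PP (adjusted p = 0.317 by edgeR) and -1.19 for LL against PL (adjusted p = 0.113 by edgeR). The second effect differed by -0.59 between repopulated and original microglia (95% interval -1.50 to 0.32, edgeR adjusted p = 0.845).

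The Dusp2 -474 promoter peak (chr2:127335059-127335685) lies just outside the sequence window printed above, and also within the RefSeq span of Gm46762. It had 16.9 and 19.3 CPM in LBL, 33.7, 37.9 and 38.9 CPM in PBL, and 17.1 and 16.6 CPM in PBP. It had 24.0 and 17.7 CPM in LL, 27.3 and 35.1 CPM in PL, and 33.7 and 29.9 CPM in PP. Each PBL library was higher than every LBL and PBP library, while PL and PP overlapped. A rise in PBL against PBP (log2 fold change 1.14 ± 0.23 SE, edgeR adjusted p = 7.33e-05) and a fall in LBL against PBL (log2 fold change -1.03 ± 0.21 SE, edgeR adjusted p = 0.0012) passed the test. PL against PP gave log2 fold change -0.02 ± 0.25 SE, edgeR adjusted p = 0.98, and the responses of repopulated and original microglia differed by 1.16 (95% interval 0.49 to 1.82, edgeR adjusted p = 0.133). PBP lay at -0.91 relative to PP, with an edgeR adjusted p of 0.194. Both rises in PBL against PBP kept an adjusted p under the threshold in all 15 alternatives. The falls in LBL against PBL lost it by DESeq2 (0.0928 for -12792, 0.166 for -474) and without LBL 1_2 (0.0502 and 0.091), and the -474 peak also without LBL 3_4 (0.0575).

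The Dusp2 start-site peak (chr2:127335793-127336514) had 38.3 and 33.5 CPM in LBL, 61.8, 47.7 and 51.7 CPM in PBL, and 42.7 and 36.2 CPM in PBP. It had 44.9 and 42.7 CPM in LL, 54.5 and 37.8 CPM in PL, and 33.7 and 39.9 CPM in PP. The PBL mean was again the highest and the LBL mean the lowest, but LBL against PBL missed the threshold (log2 fold change -0.57 ± 0.17 SE, edgeR adjusted p = 0.0558), as did PBL against PBP (log2 fold change 0.41 ± 0.17 SE, edgeR adjusted p = 0.128). Summed over all 3 peaks, the Dusp2 locus had 65.0 and 65.7 CPM in LBL, 116, 117 and 123 CPM in PBL, and 69.7 and 66.1 CPM in PBP. It had 84.5 and 73.2 CPM in LL, 103 and 103 CPM in PL, and 80.6 and 88.3 CPM in PP. The sum rose in PBL against PBP (log2 fold change 0.81 ± 0.12 SE, edgeR adjusted p = 1.2e-06) and fell in LBL against PBL (log2 fold change -0.87 ± 0.12 SE, edgeR adjusted p = 1.67e-06), and neither call was lost in any of the 8 alternatives run, DESeq2 and each left-out library of the comparison included. LL against PL gave log2 fold change -0.40 ± 0.12 SE, edgeR adjusted p = 0.311, and PL against PP log2 fold change 0.29 ± 0.15 SE, edgeR adjusted p = 0.209. Of all 13734 gene loci tested, 5.15% rose and 2.32% fell in PBL against PBP, and 0.706% rose and 0.502% fell in LBL against PBL.

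**Figure D3:**
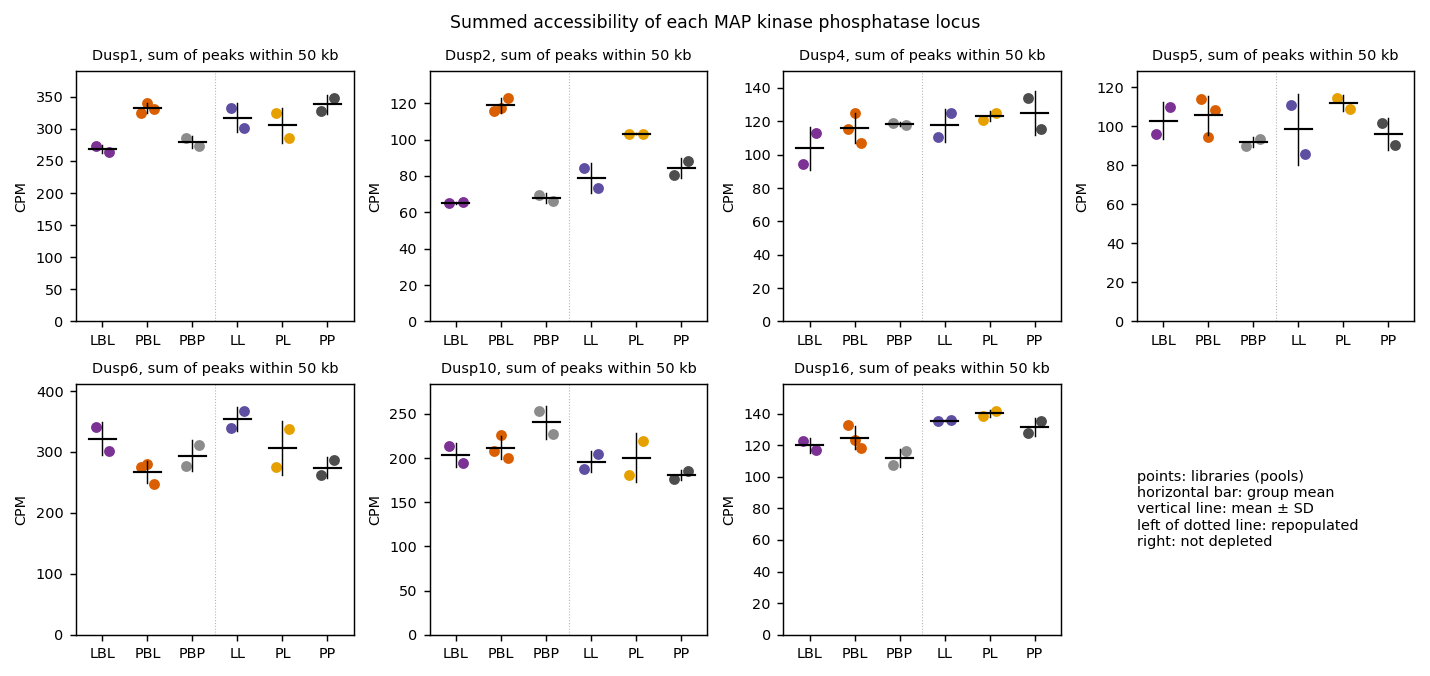
Summed CPM of all peaks within 50 kb of each gene (y axes, each from 0), with a point per library, a bar at the group mean and a line of ± 1 SD. The 3 PBL libraries at Dusp2 lie at 116 to 123 CPM, and the LBL and PBP libraries at 65.0 to 69.7 CPM.

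Dusp4 (MKP-2), a nuclear phosphatase closely related to Dusp1, was the gene without a call. Its start-site peak had 44.2 and 52.8 CPM in LBL, 56.9, 49.0 and 43.6 CPM in PBL, and 54.9 and 46.8 CPM in PBP. It had 45.9 and 48.7 CPM in LL, 59.3 and 46.3 CPM in PL, and 48.4 and 41.9 CPM in PP. The groups overlapped in a range of 41.9 to 59.3 CPM. Its other 3 peaks ranged over 11.7 to 33.7 CPM. The Dusp4 +10287 peak, in the gene's last intron and chosen after its values were seen, was lowest in LBL at 13.0 and 13.2 CPM, against 16.2, 22.2 and 19.8 CPM in PBL (log2 fold change -0.59 ± 0.26 SE, edgeR adjusted p = 0.244).

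Dusp5 encodes a nuclear phosphatase selective for ERK. The intergenic Dusp5 -21199 peak (chr19:53507389-53507910) had 12.3 and 15.2 CPM in LBL, 13.3, 11.1 and 16.9 CPM in PBL, and 6.10 and 4.53 CPM in PBP. It had 12.0 and 8.85 CPM in LL, 20.2 and 11.7 CPM in PL, and 14.7 and 12.0 CPM in PP. The PBP libraries alone were low, and LBL and PBL overlapped. It rose in PBL against PBP (log2 fold change 1.37 ± 0.36 SE, edgeR adjusted p = 0.00448) and in LBL against PBP (log2 fold change 1.36 ± 0.40 SE, edgeR adjusted p = 0.0221). Both calls rest on the 2 PBP libraries: leaving out either raised the adjusted p to 0.0577 and 0.114 in the first and to 0.138 and 0.198 in the other, and DESeq2 gave 0.111 and 0.27. PP had 14.7 and 12.0 CPM, close to the LPS groups, and PBP against PP gave log2 fold change -1.29 ± 0.45 SE, edgeR adjusted p = 0.267. The start-site peak (chr19:53528664-53529878), which holds the CArG boxes, had 59.8 and 71.6 CPM in LBL, 78.0, 60.1 and 69.3 CPM in PBL, and 72.0 and 66.4 CPM in PBP. It had 70.9 and 51.1 CPM in LL, 70.5 and 66.0 CPM in PL, and 73.6 and 63.9 CPM in PP. It ranged over 51.1 to 78.0 CPM and was not called in any comparison. At Dusp5 +6331, an intronic peak also chosen after its values were seen, 19.0 and 18.5 CPM in LL and 16.6 and 19.7 CPM in PL stood against 8.41 and 9.98 CPM in PP, and both missed the threshold (edgeR adjusted p = 0.0656 and 0.0853).

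Dusp6 (MKP-3) is the cytoplasmic phosphatase of ERK and a widely used readout of ERK activity. A peak downstream of the gene was more accessible in all LPS groups than in the matching PBS-only groups, while its start-site peak, one of the strongest of the 32, was not called. The Dusp6 +4722 peak (chr10:99270363-99270768, at +7132 from the RefSeq start and within the annotated span of the uncharacterised transcript Gm34921) had 44.2 and 42.1 CPM in LBL, 42.1, 43.5 and 40.3 CPM in PBL, and 24.4 and 30.2 CPM in PBP. It had 43.9 and 54.7 CPM in LL, 40.3 and 53.3 CPM in PL, and 29.5 and 20.0 CPM in PP. Every LPS library, at 40.3 to 54.7 CPM, was above every PBS-only library, at 20.0 to 30.2 CPM. The peak rose in PL against PP (log2 fold change 0.93 ± 0.24 SE, edgeR adjusted p = 0.0065), PBL against PBP (log2 fold change 0.63 ± 0.20 SE, edgeR adjusted p = 0.0228), LL against PP (log2 fold change 1.01 ± 0.23 SE, edgeR adjusted p = 0.00199) and LBL against PBP (log2 fold change 0.67 ± 0.22 SE, edgeR adjusted p = 0.0486). It was the only one of the 32 called in 4 comparisons. For a second against a first injection no change was detected: LL against PL was 0.08 (95% interval -0.26 to 0.42) and LBL against PBL was 0.04 (-0.29 to 0.37). The full separation of LPS from PBS-only libraries was not particular to Dusp6 +4722. It also held at Dusp1 -9297 (8.45 to 18.0 against 4.53 to 6.31 CPM) and at Dusp16 -3639 (35.6 to 53.8 against 22.1 to 32.4 CPM). The share of all peaks with such a separation was not counted.

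Each of those 4 calls was lost without 1 or more libraries. Without PP 3_4 the adjusted p of edgeR was 0.257 for PL against PP and 0.197 for LL against PP. Without PBP 1_2 it was 0.398 for PBL against PBP and 0.472 for LBL against PBP. The last was the least stable, lost in 10 of 15 alternatives. The log2 fold change stayed above 0 in all of them, at 0.45 or more.

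The Dusp6 +13878 peak (chr10:99279519-99279921, intergenic) had 6.50 and 7.11 CPM in LBL, 9.13, 11.6 and 8.80 CPM in PBL, and 5.49 and 12.1 CPM in PBP. It had 11.0 and 11.3 CPM in LL, 12.4 and 13.8 CPM in PL, and 4.21 and 5.99 CPM in PP. Both PL libraries were above both PP libraries, and the PBP libraries spanned those of PBL. It rose in PL against PP (log2 fold change 1.35 ± 0.45 SE, edgeR adjusted p = 0.0471), a call lost in 8 of 15 alternatives, among them without either PP library (adjusted p = 0.333 and 0.162) and without PL 3_4 (0.254). The start-site peak of Dusp6 had 110.5 and 98.5 CPM in LBL, 84.3, 92.5 and 80.7 CPM in PBL, and 101 and 110.1 CPM in PBP. It had 108 and 114 CPM in LL, 93.7 and 101 CPM in PL, and 88.4 and 109.8 CPM in PP. The PBL libraries were below both PBP libraries, a difference that missed the threshold (log2 fold change -0.30 ± 0.12 SE, edgeR adjusted p = 0.104). The Dusp6 -914 promoter peak ranged over 46.3 to 70.2 CPM. The summed Dusp6 locus had 340.5 and 302 CPM in LBL, 276, 280.2 and 247 CPM in PBL, and 276 and 312 CPM in PBP. It had 339.6 and 368 CPM in LL, 275 and 337 CPM in PL, and 262 and 287 CPM in PP. The sum rose in LL against PP (log2 fold change 0.37 ± 0.10 SE, edgeR adjusted p = 0.0146), and the call was lost in 5 of 7 alternatives, with an adjusted p of up to 0.279. At the Dusp1 locus, which held 273 and 264 CPM in LBL and 325, 340.2 and 331 CPM in PBL, a fall in LBL against PBL (log2 fold change -0.31 ± 0.08 SE, edgeR adjusted p = 0.0404) was lost in all 8 alternatives.

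Of the 5 peaks at other genes whose centred log2 CPM over the 13 libraries was most like that of Dusp6 +4722, the nearest lay at Phxr4, at a root mean square difference of 0.124, followed by Nuak2 (0.132), Tvp23a (0.137), Rgs3 and E030018B13Rik (0.139 each). The median over 33689 candidate peaks was 0.485.

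Dusp10 (MKP-5) and Dusp16 (MKP-7) encode phosphatases that act on JNK and p38. Dusp10 had the highest mean start-site level of the 7 genes in CPM, with 133 and 116 CPM in LBL, 126, 139 and 119 CPM in PBL, and 143 and 131 CPM in PBP. It had 114 and 122 CPM in LL, 116 and 116 CPM in PL, and 104 and 121 CPM in PP. It was not called in any comparison. The Dusp10 -32848 peak (chr1:183979572-183980454, intergenic, -53927 bp from the RefSeq start) had 53.3 and 55.9 CPM in LBL, 53.4, 56.9 and 58.3 CPM in PBL, and 79.3 and 68.6 CPM in PBP. It had 48.9 and 57.9 CPM in LL, 41.5 and 61.8 CPM in PL, and 44.2 and 37.9 CPM in PP. The PBP libraries were the highest of all 13. Its rise passed the test in PBP against PP (log2 fold change 0.86 ± 0.20 SE, edgeR adjusted p = 0.0294), and leaving out any 1 of the 4 libraries ended the call, with adjusted p-values of 0.0851 to 0.365. DESeq2 gave 0.402. PBP and PP were isolated on different days. With day as a term the value was 1.43 (edgeR adjusted p = 0.00177), and the day effect in that fit rests on the 2 PL libraries, 1 from each day. PBL against PBP gave log2 fold change -0.39 ± 0.15 SE, edgeR adjusted p = 0.072, and the first LPS responses differed by -0.74 (95% interval -1.24 to -0.24, edgeR adjusted p = 0.213).

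The Dusp10 +14410 peak (chr1:184048791-184049460, in an intron of Dusp10) was lowest in the groups given LPS before and again. It had 10.4 and 8.12 CPM in LBL, 17.6, 16.7 and 12.8 CPM in PBL, and 22.0 and 13.6 CPM in PBP. It had 8.98 and 7.24 CPM in LL, 13.0 and 18.6 CPM in PL, and 18.9 and 16.0 CPM in PP. Every LBL and LL library, at 7.24 to 10.4 CPM, was below every library of the other 4 groups. How many of all peaks separate in this way was not counted. The Dusp10 +14410 pattern was seen in the values and was not itself tested. The peak fell in LL against PP (log2 fold change -1.11 ± 0.36 SE, edgeR adjusted p = 0.0411), while LBL against PBP (log2 fold change -0.99 ± 0.33 SE, edgeR adjusted p = 0.0549), LL against PL (log2 fold change -0.99 ± 0.31 SE, edgeR adjusted p = 0.247) and LBL against PBL (log2 fold change -0.74 ± 0.29 SE, edgeR adjusted p = 0.186) missed the threshold. The LL call was lost without any 1 of its 4 libraries, with adjusted p-values of 0.0698 to 0.303.

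At Dusp16, the -3639 peak (chr6:134796264-134796726) is intergenic in the deposited annotation but lies within the RefSeq spans of Dusp16 and 1700055D16Rik. It had 46.8 and 37.6 CPM in LBL, 42.1, 37.5 and 35.6 CPM in PBL, and 25.6 and 32.4 CPM in PBP. It had 43.4 and 36.2 CPM in LL, 35.6 and 53.8 CPM in PL, and 22.1 and 27.9 CPM in PP. Every PBS-only library, at 22.1 to 32.4 CPM, was below every LPS library, at 35.6 to 53.8 CPM. PL 3_4, at 53.8 CPM, was the highest. The peak rose in PL against PP (log2 fold change 0.84 ± 0.25 SE, edgeR adjusted p = 0.0182). The value without PL 3_4 was 0.49 (edgeR adjusted p = 0.481), and with day as a term it was 1.10 (0.00066). LL against PP gave log2 fold change 0.65 ± 0.25 SE, edgeR adjusted p = 0.0906. In repopulated microglia, PBL against PBP gave 0.40 (edgeR adjusted p = 0.232) and LBL against PBP 0.54 (edgeR adjusted p = 0.152). At the upstream start of Dusp16 the peak had 36.4 and 36.6 CPM in LBL, 37.9, 37.0 and 34.5 CPM in PBL, and 40.3 and 40.0 CPM in PBP. It had 39.4 and 43.1 CPM in LL, 49.8 and 34.1 CPM in PL, and 46.3 and 54.9 CPM in PP. At an internal start it had 18.2 and 15.2 CPM in LBL, 23.9, 20.4 and 19.1 CPM in PBL, and 20.1 and 18.1 CPM in PBP. It had 27.9 and 26.6 CPM in LL, 21.3 and 19.7 CPM in PL, and 25.2 and 22.0 CPM in PP. The PP libraries, at 46.3 and 54.9 CPM, were among the highest at the upstream start, and neither peak was called.

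**Figure D4:**
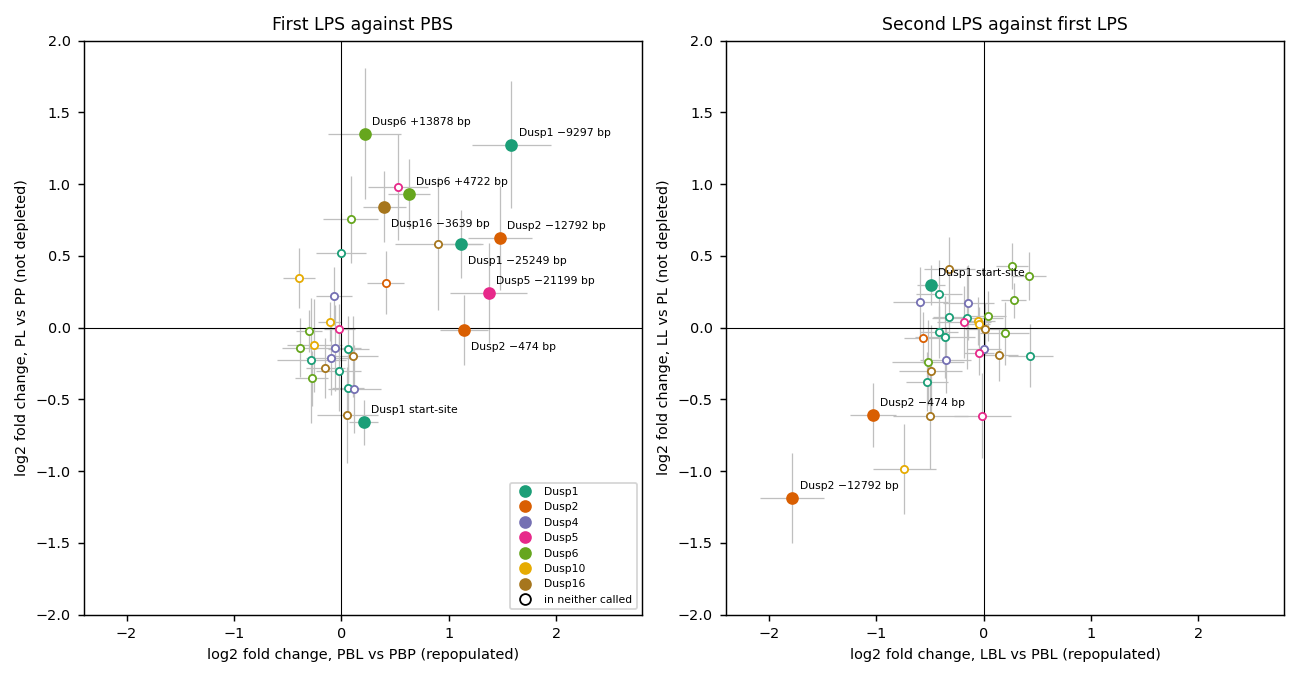
Log2 fold changes of the 32 peaks (points coloured by gene, lines of ± 1 SE, filled and named where called in 1 of the plotted comparisons). The left panel sets PBL against PBP (x) beside PL against PP (y) and the right panel LBL against PBL (x) beside LL against PL (y), and the Dusp2 -12792 and -474 points lie lowest on the right panel's x axis, at -1.78 and -1.03.

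Further genes of the pathway were taken from 7 lists (other phosphatases, the 3 tiers of kinases, kinases activated by MAP kinases, and other feedback inhibitors). Of 81 genes listed, 71 had a summed locus that could be tested. In PL against PP, 5 rose and 3 fell. Across all gene loci, 6.54% rose and 4.07% fell in that comparison. In PBL against PBP, 3 rose and 1 fell, where 5.15% of all loci rose and 2.32% fell, so these counts lie near the background. In LL against PL and LBL against PBL edgeR called none (6 and 8 at an unadjusted p under 0.05), nor did DESeq2 (1 and 3). The background of LL against PL was 0.0146% of loci higher and 0.0291% lower. That of LBL against PBL was 0.706% higher and 0.502% lower. At such shares, a lack of calls among 71 loci also lies near the background. Median log2 fold changes of the 7 lists ran from -0.20 (MAP kinase kinases) to 0.10 (MAP kinase kinase kinases) in PL against PP, from -0.03 to 0.21 in PBL against PBP, from -0.06 to 0.13 in LL against PL and from -0.14 to 0.02 in LBL against PBL. The median of all loci lay between -0.00573 and 0.00342 in these comparisons.

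Among 18 MAP kinase kinase kinases, 2 rose in PL and 1 in PBL. Map3k8 (TPL2), which links Toll-like receptors to ERK, had the largest change, with 334 ± 38.3 CPM in PL and 110.0 ± 2.03 CPM in PP (SD, log2 fold change 1.60 ± 0.12 SE, edgeR adjusted p = 3.18e-17). It had 312 ± 17.4 CPM in PBL and 132 ± 4.67 CPM in PBP (log2 fold change 1.24 ± 0.10 SE, edgeR adjusted p = 2.85e-16). No alternative run ended either call. Map3k4, upstream of p38 and JNK, rose in PL (log2 fold change 0.45 ± 0.15 SE, edgeR adjusted p = 0.0445). Of 10 MAP kinases, Mapk11, a p38 isoform, rose in PBL (log2 fold change 0.86 ± 0.28 SE, edgeR adjusted p = 0.0396), a call lost in all 8 alternatives.

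Of 10 kinases activated by MAP kinases, Rps6ka3 (RSK2) rose (log2 fold change 0.65 ± 0.14 SE, edgeR adjusted p = 0.00119) and Rps6ka4 (MSK2) fell (log2 fold change -0.82 ± 0.24 SE, edgeR adjusted p = 0.0148) in PL against PP. Mknk2, which phosphorylates the translation factor eIF4E, fell in PBL (log2 fold change -0.33 ± 0.09 SE, edgeR adjusted p = 0.0129). Of 14 other feedback inhibitors, Spry4 and Spred1, which restrain Ras and Raf signalling, rose in PL (log2 fold change 0.65 ± 0.19 SE, edgeR adjusted p = 0.0179 for Spry4, and log2 fold change 0.38 ± 0.13 SE, edgeR adjusted p = 0.0391 for Spred1), but Spred1 lost its direction when only peaks within 1 kb were summed (-0.07). Among the other phosphatases, Dusp8 rose in PBL (log2 fold change 0.60 ± 0.17 SE, edgeR adjusted p = 0.0132), and the atypical phosphatases Dusp3 and Dusp13 fell in PL (log2 fold change -0.54 ± 0.16 SE, edgeR adjusted p = 0.0221 for Dusp3, and log2 fold change -0.44 ± 0.14 SE, edgeR adjusted p = 0.0313 for Dusp13). Each of these calls except those of Map3k8 was lost on leaving out at least 1 library.

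**Figure D5:**
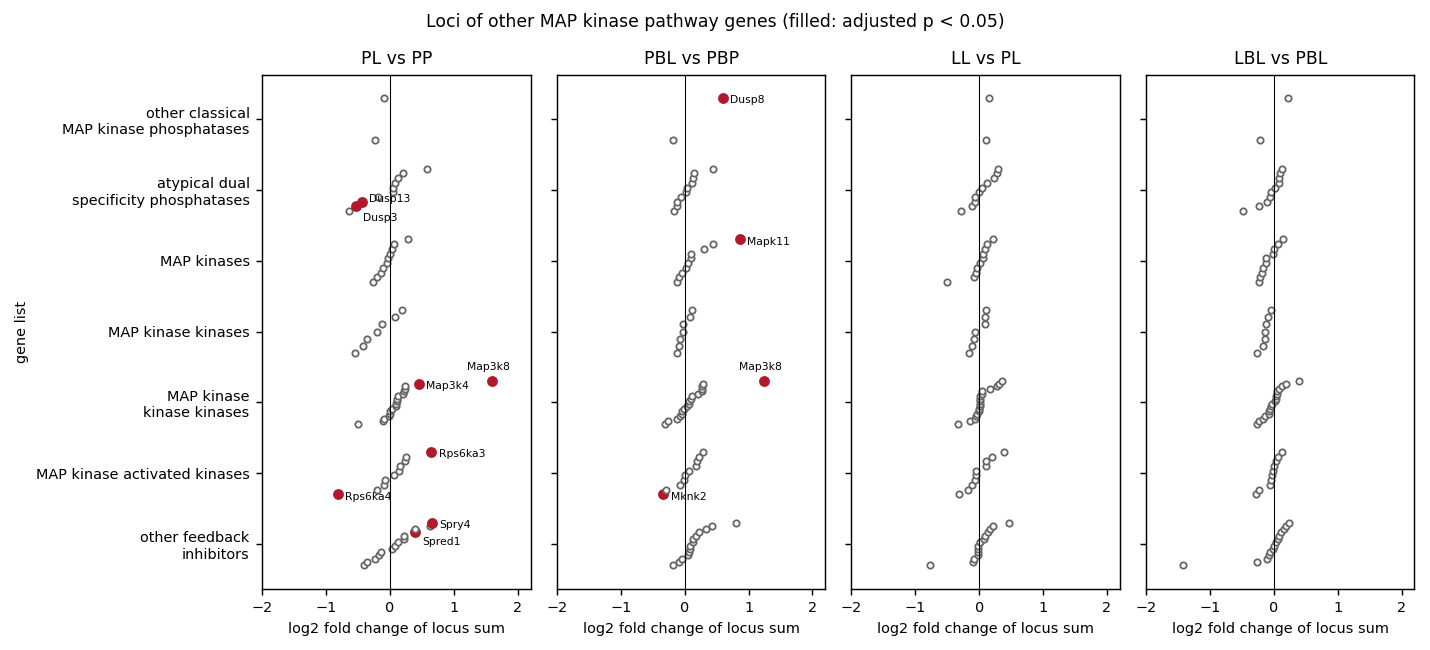
Log2 fold change of the summed locus (x axis) for the 71 other pathway genes by list (y axis) in 4 comparisons, filled and named where edgeR's adjusted p was under 0.05. Map3k8 lies furthest right in the first 2 panels, at 1.60 and 1.24, and no point is filled in the other 2.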

How the data were processed

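Microglia chromatin was profiled by ATAC-seq in 13 libraries of 6 groups. The authors deposited 1 table of expected or estimated counts per peak and library on a common peak set, in steps of 0.5 and without normalization. The tool that counted them, and any shift of read ends for the transposase, are not named in the labels. The submitters' processing notes name, among other tools, MACS2 2.1.1, ChIPseeker 1.38 and Bowtie2 2.2.6, and the builds GRCm38 and mm10, without their order or settings. Distances to start sites, nearest genes and peak annotation are as deposited.

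After rounding the counts to whole numbers, edgeR 4.0.16 was run in R 4.3.3. Peaks were filtered with filterByExpr at a minimum count of 10 (37516 of 38620 kept), libraries were scaled by TMM, and all libraries entered 1 quasi-likelihood fit with a mean per group and robust dispersions. Tests were two-sided F tests, adjusted by the Benjamini-Hochberg method over all peaks, with a threshold of 0.05. The SE is the log2 fold change divided by the square root of F, and intervals are 1.96 SE. Locus sums add the peaks within 50 kb of a gene's start site before rounding. Replicates are pools. The p-values rest on a spread estimated over all libraries together, which holds counting error as well as variation between pools. At peaks with few counts, counting error can make up most of it. The member genes, lists and comparisons were chosen with earlier results of these data known. A peak was described by library if it was called in 1 of the 9 comparisons or lay at a start site, with further peaks named where shown. From a pathway list, the 2 loci with the smallest p in each direction were named, and peaks most like a member are the 5 with the smallest root mean square difference. Alternatives included DESeq2 1.42.0 and limma 3.58.1. Where a library was left out of a pair, the lone sample was assumed to vary like the other groups. Distal peaks are shown without sequence, since no genome was used here.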

Additional observations from a re-analysis of the deposited data

How the results depend on the processing

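The 18 calls on single peaks were each rerun under those of 26 alternative settings that applied to them. Of the 276 pairs of a call and a setting, 207 kept the call, 69 lost it and 0 turned the direction. The 2 calls at Dusp2 in PBL against PBP were never lost. For PL against PP, 4 peaks were called, 1 by DESeq2, 2 when only the groups compared were fitted and 0 to 6 with 1 library left out. For PBL against PBP, 6 were called, 3 by DESeq2 and 3 to 6 with 1 library left out. LL against PL had 0, and 0 to 1 with 1 library left out. LBL against PBL had 3, 0 by DESeq2 and 0 to 3 with 1 library left out. LL against PP had 2, with 5 by limma-trend, 7 by cyclic loess, 1 by DESeq2, 4 in the fit of these groups alone, 1 with the PP pair summed as 1 library and 0 to 1 with 1 library left out. LBL against PBP had 2, with 1 without a low-count filter, by median-of-ratios factors, by library totals, by cyclic loess or with the LBL pair summed, 0 by DESeq2, 4 in the fit of these groups alone and 0 to 1 with 1 library left out. PBP against PP had 1, with 3 by limma-trend, cyclic loess or isolation day as a term, 0 by DESeq2 or with the PP pair summed, and 0 with any 1 library left out. PBL against PL had 0, and 0 to 2 with 1 library left out. The test of a difference in the first LPS response had 0, with 1 under a doubled minimum count, median-of-ratios factors, library totals, counts rounded down, cyclic loess or the replicate block, and 0 to 2 with 1 library left out. That of the second LPS effect had 0, and 0 to 1 with 1 library left out. Over members and pathway lists, 27 locus calls became 16 with peaks within 1 kb, 10 by DESeq2 and 12 to 49 with 1 library left out. The Spred1 locus in PL against PP turned to -0.0669 with peaks within 1 kb. The causes were not tested. DESeq2 and left-out libraries for locus sums, the summed pairs and the alternatives for the Dusp1 start-site difference were chosen after seeing the data.

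Nothing used here says that pool numbers mark a shared animal, litter or day across groups, and deviations of same-numbered pools correlated at -0.0174 to 0.166 across comparisons. The fit with a replicate block on them left out PBL 4_5, which has no same-numbered pool in the other groups. That fit ended the call of the Dusp1 start-site peak in LBL against PBL (-0.47, edgeR adjusted p = 0.0653). It brought the peak's difference in first LPS response to 0.87 (0.0195). The parts of the block and of the missing library in these changes were not told apart. Isolation day could be fitted for PL against PP and PBP against PP only. With 2 or 3 pools a group and 3.66 to 143 CPM a peak, the weaker peaks carry the widest intervals, and counting error is their lower limit.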
